A study of Mus musculus with 12 samples.

Results

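Collagen chain genes were taken as the rows whose mouse symbol is Col, a number, the letter a and a number. The rule found 44 genes among the 46078 in the count table, and it used names and no measured value. By protein type they comprise 11 fibrillar chains, 6 chains of basement membrane collagen type IV, 2 multiplexins, 6 type VI chains, 9 fibril-associated chains (the FACIT class), 3 short-chain network chains, 4 transmembrane chains and 1 chain each of types VII, XXVI and XXVIII. They were counted in 12 RNA-sequencing libraries of ventrolateral white matter, cut by laser from cryosections of the spinal cord of C57Bl6 mice, with 3 libraries in each of 4 groups. Young mice were 6 weeks old and middle-aged mice 8 months old. At each age, naive mice were compared with injured mice, which had received lysolecithin, a detergent that strips myelin, in the ventrolateral white matter and were taken 72 h later. The labels give no allele, transgene or other agent for any group, and no injection for the naive mice, so effects of the needle and of the detergent cannot be told apart. The series' design text gives a pool of 5 animals per condition and the study's legend one per data point, so it is not settled whether the 3 replicates were separate pools, and every p-value below measures the spread between libraries, which may be technical.

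Collagens are proteins of the extracellular matrix whose chains wind around each other into a helical rod. Fibrillar collagens assemble into the fibres of connective tissue and scars, type IV collagen forms the sheet of the basement membrane around blood vessels and under the meninges, and FACIT chains coat the surface of fibrils. In the uninjured central nervous system, collagen is found mainly around vessels and in the meninges, where fibroblasts, mural cells and endothelial cells are its known sources, and a lesion can lay down a collagen-rich scar.

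Levels are given as CPM, the read count of a gene relative to the normalised size of its library, and levels of different chains are compared only as CPM per kilobase of exon (RPKM). Library totals ran from 9834447 to 12807437 counted reads, and 3 counts, taken as the floor of detection, correspond to 0.22 to 0.323 CPM. These floors and the count intervals cover counting error only, since the RNA was amplified before sequencing. A chain was called higher or lower where the quasi-likelihood test of edgeR gave an adjusted p under 0.05 (Benjamini-Hochberg over the 15866 genes that passed the filter on low counts). Statements that groups did not overlap describe the values of the same libraries and add no support to a call. Scaling by library totals alone would shift the median of all genes in the young injury comparison from 0.00 to 0.20 on the log2 scale, and the share of called genes that were higher from 51.8% to 62.4%.

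A pair of libraries stood apart. Young injured replicate 1 held 83.3 CPM of 4 skeletal muscle markers against at most 0.465 CPM in any other library. Middle-aged naive replicate 2 correlated at 0.937 and 0.945 with the other libraries of its group, against 0.967 to 0.988 for all other pairs within groups. Without young injured replicate 1, the young injury comparison called 23 chains higher and 3 lower (24.5% and 21.9% of all genes). Without middle-aged naive replicate 2 the middle-aged one called 21 higher and 3 lower (30.3% and 29.0% of all genes). The part of muscle tissue in these values was not tested. In bulk tissue, fewer cells of a type and less RNA per cell cannot be told apart.

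The sequences below are shown because they belong to chains on which the results turn. Col3a1 and Col8a1 rose at both ages, Col11a2 and Col23a1 fell at both ages, and Col4a1 and Col4a2 share their first bases. The first 4 are the 250 bases upstream of the RefSeq start (GRCm38.p6), written 5′ to 3′ on the strand of the gene. Col3a1 was read from chr1:45311288-45311537 (plus strand), Col8a1 from chr16:57754738-57754987 (minus), Col11a2 from chr17:34038888-34039137 (plus) and Col23a1 from chr11:51289670-51289919 (plus). The last holds the 22 bases at chr8:11312805-11312826 in which the exons of Col4a1 (minus) and Col4a2 (plus) overlap, read along Col4a2. Capitals mark the letters TATAAA and GGGCGG or its reverse strand CCGCCC.
Col3a1: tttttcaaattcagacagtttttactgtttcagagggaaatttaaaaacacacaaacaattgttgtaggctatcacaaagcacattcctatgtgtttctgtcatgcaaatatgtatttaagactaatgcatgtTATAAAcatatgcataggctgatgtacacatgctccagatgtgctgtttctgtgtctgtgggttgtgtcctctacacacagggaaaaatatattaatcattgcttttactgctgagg
Col8a1: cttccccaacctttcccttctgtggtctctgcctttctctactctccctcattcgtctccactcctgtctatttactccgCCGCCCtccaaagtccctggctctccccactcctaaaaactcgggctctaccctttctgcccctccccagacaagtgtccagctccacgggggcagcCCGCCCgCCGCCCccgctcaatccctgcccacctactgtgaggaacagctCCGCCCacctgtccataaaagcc
Col11a2: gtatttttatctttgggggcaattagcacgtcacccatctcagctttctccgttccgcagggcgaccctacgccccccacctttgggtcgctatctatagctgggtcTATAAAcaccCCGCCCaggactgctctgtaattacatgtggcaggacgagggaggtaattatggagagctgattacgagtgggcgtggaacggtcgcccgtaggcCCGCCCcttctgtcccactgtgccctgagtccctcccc
Col23a1: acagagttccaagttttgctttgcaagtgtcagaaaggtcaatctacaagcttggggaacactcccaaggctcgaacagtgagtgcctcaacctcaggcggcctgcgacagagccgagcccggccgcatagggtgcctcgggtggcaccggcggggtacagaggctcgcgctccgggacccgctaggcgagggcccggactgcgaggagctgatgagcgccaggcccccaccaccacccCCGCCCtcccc
Col4a1 and Col4a2: agtgcgcGGGCGGcgtctccaa

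The Col3a1 window held TATAAA and no GGGCGG, with a GC content of 35.2%, whereas the Col8a1 window held 4 matches of GGGCGG on either strand and no TATAAA, with 60.8% GC. Of the 44 chains, 35 had a window in the RefSeq table, with 38 windows in all. GGGCGG or CCGCCC stood in 57.9% of these windows and in 32.7% of all 32851 windows of the same length. CCAAT or its reverse strand ATTGG stood in 34.2% against 33.8%, and TATAAA or TTTATA in 13.2% against 12.4%. Median GC content was 59.0% in the windows of the chains and 52.4% in all windows. The Col11a2 window, from a chain that fell, held both TATAAA and GGGCGG, as matches of letters and not as tested sites.

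Detection came first. Of the 44 chains, 23 were above 3 counts in every library, 34 passed the filter and were tested, and none was at 0 in all 12 libraries. The 10 chains that were not tested were Col6a4, Col6a5, Col6a6, Col10a1, Col13a1, Col17a1, Col19a1, Col24a1, Col26a1 and Col28a1, and their highest count in any library lay between 4 and 23. Col6a5, a type VI chain, was the 1 chain at 0 in all 6 naive libraries and reached 5, 0 and 2 counts in young injured and 1, 0 and 0 in middle-aged injured. Col10a1, the chain of hypertrophic cartilage, was at 0 in the young naive libraries and at no more than 6 counts elsewhere. Col28a1 was at 0 in the middle-aged naive libraries and reached at most 4 counts. Col24a1, a fibrillar chain, was counted 7, 1 and 5 times in young naive, 9, 9 and 15 times in middle-aged naive, 8, 1 and 1 times in young injured and 2, 3 and 0 times in middle-aged injured. Values this low allow no statement on change in either direction.

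After injury most tested chains were higher. In young mice 25 of the 34 tested chains were called higher, where 28.3% of all tested genes were, and 3 were called lower, where 26.3% of all genes were. The median log2 fold change over the 34 chains was 2.39, against 0.00 over all genes. In middle-aged mice 20 were called higher (29.2% of all genes) and 5 lower (29.3% of all genes), with a median of 1.67 against -0.03 over all genes. At both ages 20 chains were higher, 2 (Col11a2 and Col23a1) were lower, and 4 (Col4a3, Col4a4, Col9a2 and Col22a1) were called at neither age. Both injury comparisons stand on different naive and injured libraries, and each is given with its own values. Some chains passed the filter on low counts through injured libraries alone. Young and middle-aged naive counts were 0, 2, 5 and 1, 0, 0 for Col7a1, 3, 10, 3 and 8, 8, 2 for Col8a1, and 13, 5, 4 and 6, 1, 2 for Col14a1. For such chains a rise went with being tested, so their calls add no support to the counts above. The same filter was applied to all genes.

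**Figure D1:**
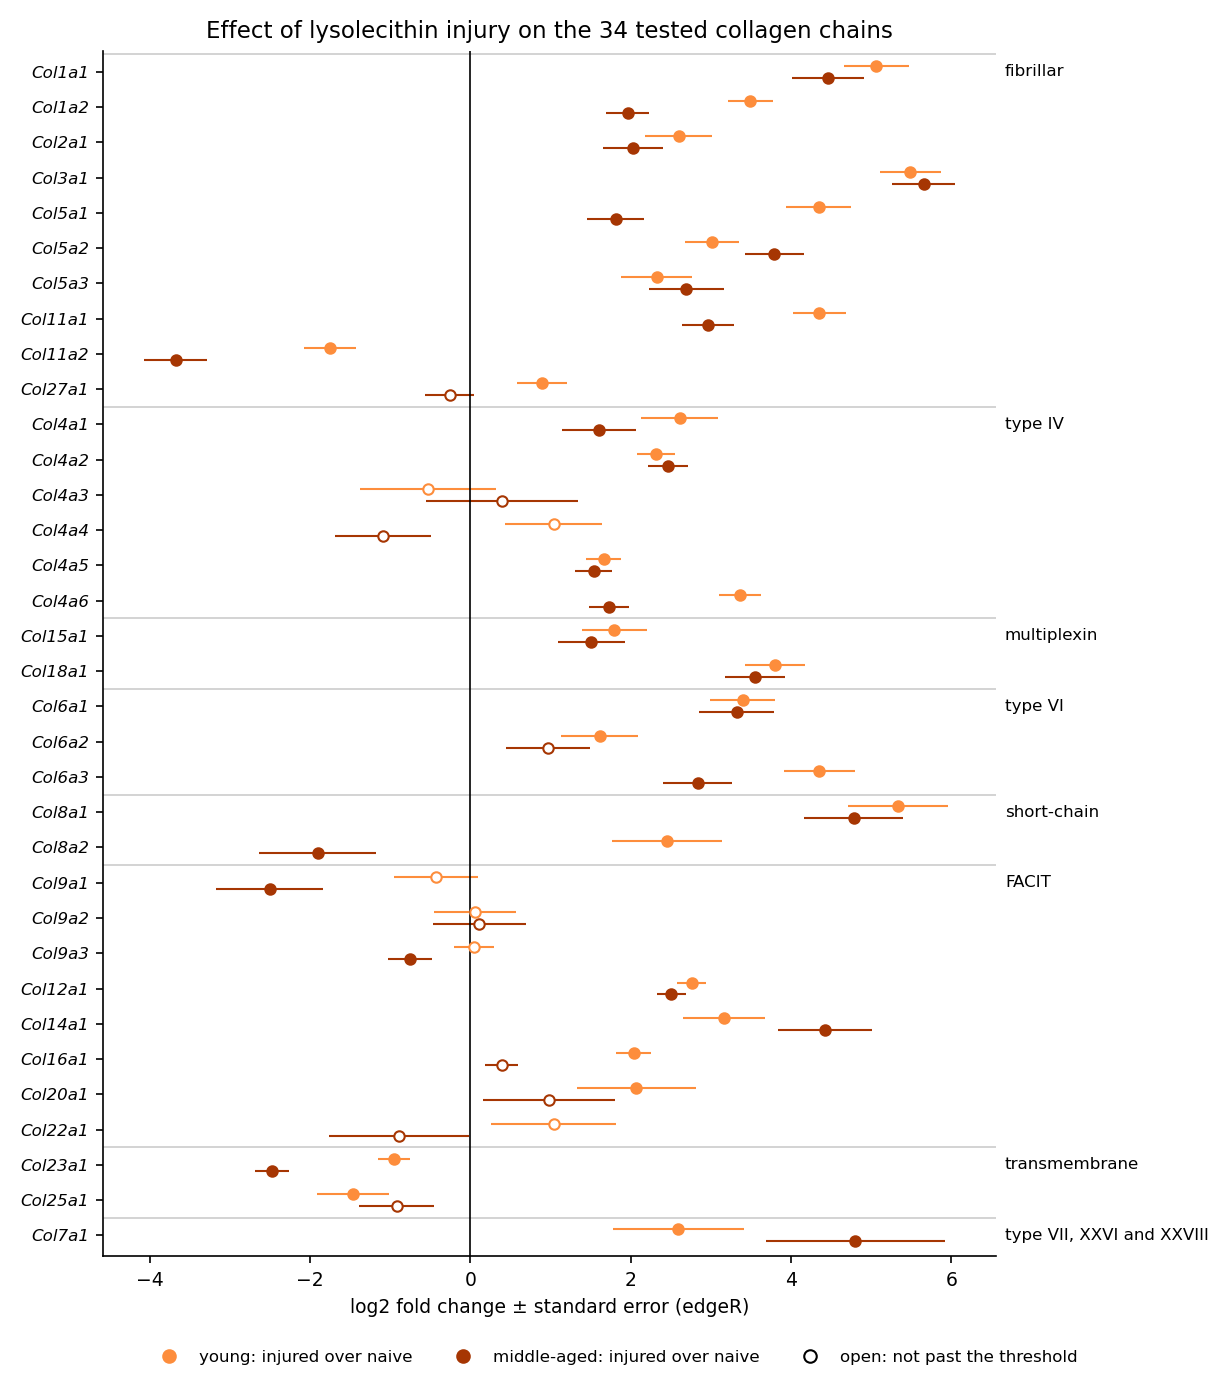
Log2 fold change of injured over naive libraries for each of the 34 tested collagen chains, grouped by class, with its standard error as a bar, in young (light) and middle-aged (dark) mice. Open circles did not pass the test. Fibrillar chains sit mostly to the right of 0, and Col11a2 and Col23a1 sit to the left at both ages.

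Of the 10 tested fibrillar chains, 9 rose and 1 fell in young mice, and 8 rose and 1 fell in middle-aged mice. Beside them, 28.3% of all tested genes rose and 26.3% fell in young mice, and 29.2% and 29.3% in middle-aged mice. Col1a1 and Col1a2 encode the chains of type I collagen, the main fibre of scar, bone and skin. Col1a1 was at 3.37, 1.99 and 1.61 CPM in young naive, 0.768, 1.36 and 0.72 in middle-aged naive, 98.8, 81.2 and 56.2 in young injured and 21.9, 30.1 and 10.3 CPM in middle-aged injured libraries. Every injured library lay above every naive one, and every middle-aged injured library below every young injured one. The log2 fold change by injury was 5.06 ± 0.41 (SE) in young mice (adjusted p = 1.28e-07) and 4.46 ± 0.45 at the later age (adjusted p = 1.02e-06). Col1a2 stood at 48.6, 48.4 and 47.6 CPM in young naive, 37.9, 69.6 and 44.7 in middle-aged naive, 626, 604 and 399 in young injured and 218, 254 and 121 CPM in middle-aged injured libraries. Its injured libraries did not overlap the naive ones at either age, with log2 fold changes of 3.49 ± 0.28 (adjusted p = 1.39e-07) and 1.96 ± 0.27 (adjusted p = 2.09e-05). Col3a1 encodes type III collagen, which forms fine fibres in vessel walls and early scars. It was at 9.66, 10.8 and 3.66 CPM in young naive, 3.74, 4.41 and 4.0 in middle-aged naive, 393, 431 and 270 in young injured and 235, 263 and 114 CPM in middle-aged injured libraries. The log2 fold changes were 5.49 ± 0.38 (adjusted p = 2.87e-08) and 5.65 ± 0.40 (adjusted p = 2.72e-08), in this fit the largest rise of the 34 chains at each age. Col2a1 encodes type II collagen, best known from cartilage. It was counted at 1.0, 2.27 and 0.538 CPM in young naive, 2.11, 4.62 and 4.40 in middle-aged naive, 6.97, 6.28 and 10.4 in young injured and 14.5, 17.8 and 13.1 CPM in middle-aged injured libraries. Both rises, of 2.60 ± 0.42 (adjusted p = 0.000111) and 2.03 ± 0.37 (adjusted p = 0.000313) on the log2 scale, exceeded the spread between libraries, and the first was 3.32 without young naive replicate 2. The summed 7 markers of cartilage and bone went the other way, from 13.7 to 27.4 summed CPM in naive libraries to 6.63 to 9.84 in young injured and 2.56 to 3.32 in middle-aged injured ones. Of these markers, Matn1, Comp, Chad, Bglap and Ibsp did not pass the filter on low counts and only 2 were tested.

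Type V and type XI chains regulate how thick fibrils grow. Col5a1 was at 1.91, 0.997 and 2.47 CPM in young naive, 4.90, 8.29 and 4.08 in middle-aged naive, 44.4, 38.4 and 25.7 in young injured and 20.4, 27.8 and 12 CPM in middle-aged injured libraries. It rose by 4.34 ± 0.41 in young (adjusted p = 6.04e-07) and 1.81 ± 0.36 at the later age (adjusted p = 0.000519) on the log2 scale, with no overlap of injured and naive libraries. Col5a2 gave 5.38, 5.26 and 6.45 CPM in young naive, 2.21, 3.04 and 1.52 in middle-aged naive, 50.8, 55.9 and 31.3 in young injured and 32.3, 43.1 and 17 CPM in middle-aged injured libraries. Here the log2 rise was 3.02 ± 0.33 in young (adjusted p = 3.14e-06) and 3.79 ± 0.37 at the later age (adjusted p = 6.97e-07). For Col5a3 the values were 2.73, 2.63 and 4.19 CPM in young naive, 3.74, 0.315 and 1.76 in middle-aged naive, 17, 14.4 and 16.3 in young injured and 11.6, 16.9 and 9.67 CPM in middle-aged injured libraries. Injured libraries again lay above all naive ones, by 2.32 ± 0.45 (adjusted p = 0.00049) and 2.69 ± 0.47 (adjusted p = 0.000189), the latter 3.52 without middle-aged naive replicate 1. Col11a1 was at 1.73, 1.36 and 2.47 CPM in young naive, 2.88, 0.944 and 2.16 in middle-aged naive, 37.4, 30.5 and 45.1 in young injured and 18.8, 12.7 and 16.0 CPM in middle-aged injured libraries. Its log2 fold change was 4.35 ± 0.33 (adjusted p = 7.19e-08) and 2.96 ± 0.32 (adjusted p = 2.12e-06), with no overlap at either age.

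Col11a2, the partner chain of Col11a1 in type XI collagen, moved the opposite way. It was at 12.7, 11.2 and 19.0 CPM in young naive, 10.6, 11.1 and 7.52 in middle-aged naive, 4.18, 4.11 and 4.44 in young injured and 1.25, 0.24 and 0.777 CPM in middle-aged injured libraries. All injured libraries lay below all naive ones. The log2 fold change was -1.75 ± 0.32 in young (adjusted p = 0.000362) and -3.68 ± 0.39 at the later age (adjusted p = 1.94e-06). Markers of oligodendrocytes fell alongside, with 6 of 6 lower at both ages, where 26.3% (young) and 29.3% (middle-aged) of all genes were. The part of cell loss in the Col11a2 values was not tested. Col27a1, another fibrillar chain of cartilage, was at 2.64, 2.72 and 6.45 CPM in young naive and 8.22, 7.13 and 6.33 CPM in young injured libraries, which overlap. Its call in young mice (log2 fold change 0.89 ± 0.31, adjusted p = 0.0265) was lost without any 1 of 4 libraries, namely young naive replicates 1 and 2 and young injured replicates 1 and 2, at adjusted p of up to 0.114. In middle-aged mice it stood at 6.05, 5.46 and 6.80 CPM in naive and 5.40, 5.43 and 4.49 CPM in injured libraries, a difference of -0.26 ± 0.31 with a 95% interval from -0.86 to 0.35 (adjusted p = 0.491).

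**Figure D2:**
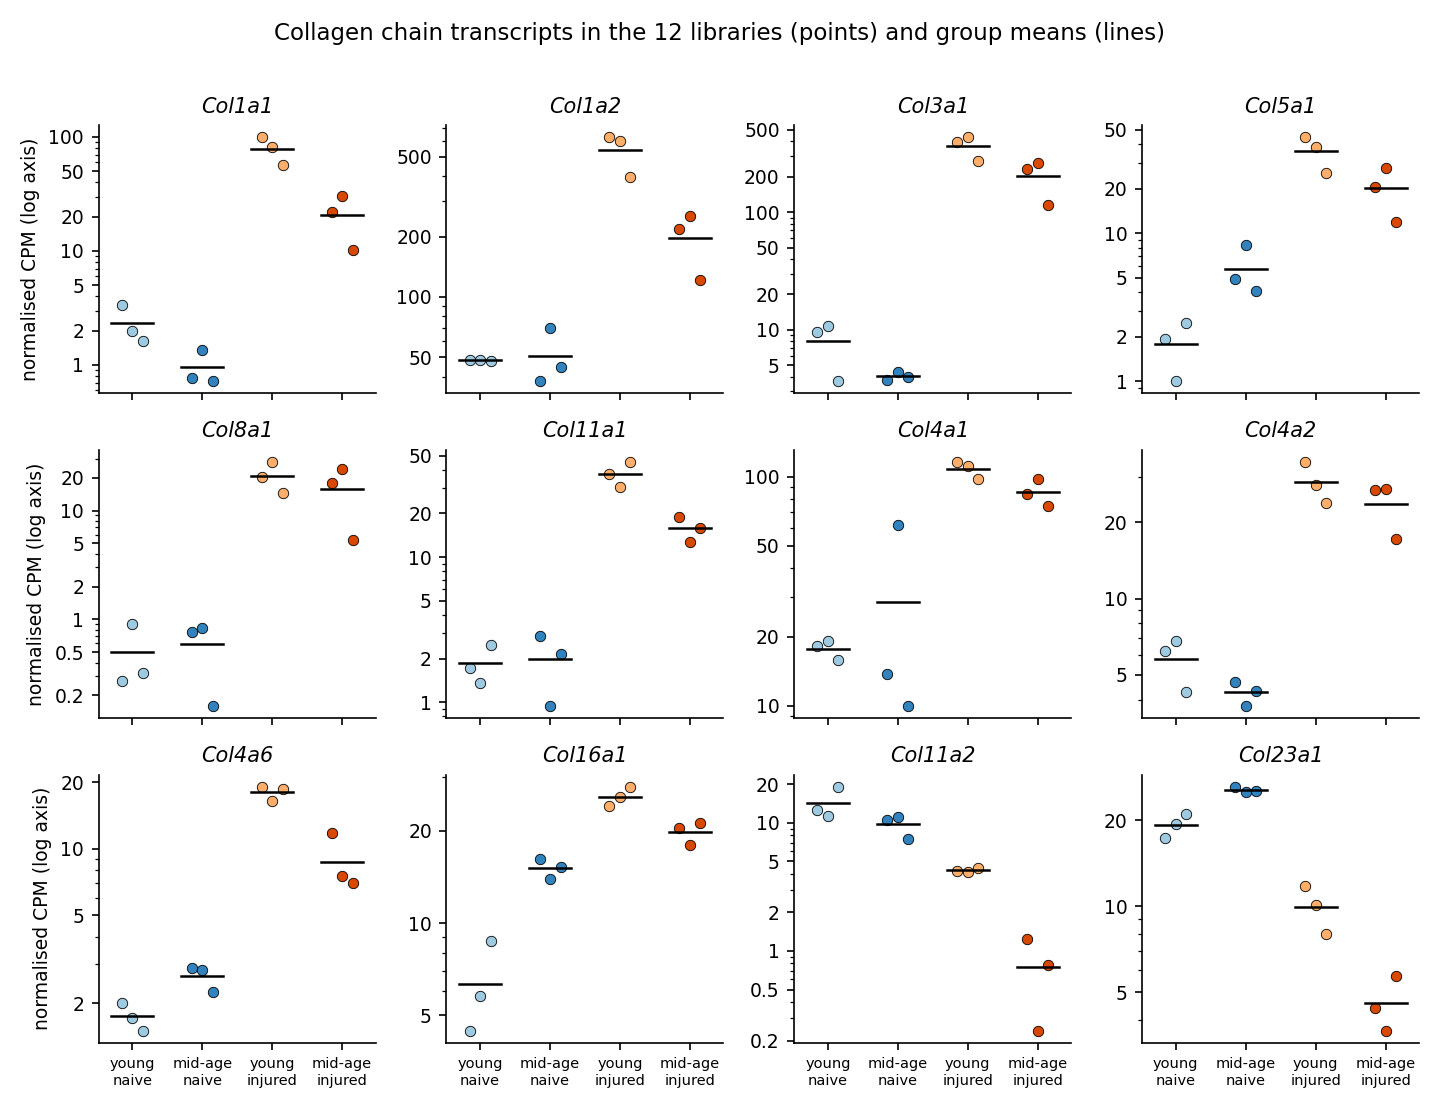
Normalised CPM on a log axis for 12 collagen chains in each of the 12 libraries (points) with the mean of each group (line). The injured libraries of Col1a1, Col3a1 and Col8a1 all lie above the naive ones, and Col11a2 and Col23a1 are lower in injured libraries.

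Type IV collagen is the scaffold of the basement membrane, and of its 6 chains 4 rose and 2 were not called at either age. The share of all tested genes that rose was 28.3% in young and 29.2% in middle-aged mice. Col4a1 and Col4a2 lie head to head on chromosome 8 and build the form found around almost all vessels. Col4a1 was at 18.3, 19.1 and 15.8 CPM in young naive, 13.8, 61.3 and 10 in middle-aged naive, 116, 112 and 97.7 in young injured and 84.1, 98.2 and 74.2 CPM in middle-aged injured libraries. Injured libraries lay above naive ones at both ages, including middle-aged naive replicate 2, which stood apart within its group. The log2 fold change was 2.61 ± 0.48 in young (adjusted p = 0.000318) and 1.60 ± 0.46 at the later age (adjusted p = 0.00765). Col4a2 was at 6.20, 6.80 and 4.30 CPM in young naive, 4.70, 3.78 and 4.32 in middle-aged naive, 34.4, 28.1 and 23.8 in young injured and 26.6, 27.0 and 17.1 CPM in middle-aged injured libraries. It rose by 2.31 ± 0.24 (adjusted p = 1.61e-06) and 2.46 ± 0.25 (adjusted p = 9.35e-07) on the log2 scale, and its middle-aged naive replicate 2 was not raised. Without that library the middle-aged log2 fold change of Col4a1 was 2.85.

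Col4a5 and Col4a6 lie head to head on the X chromosome, 1308 bases apart, and their chains join in a network known from epithelial and smooth muscle basement membranes. Col4a5 gave 10, 9.52 and 11.9 CPM in young naive, 5.86, 4.20 and 8.72 in middle-aged naive, 34.5, 34.3 and 30.6 in young injured and 20.3, 18.2 and 16.4 CPM in middle-aged injured libraries. The rise was 1.66 ± 0.22 (adjusted p = 1.87e-05) and 1.53 ± 0.23 (adjusted p = 4.48e-05) on the log2 scale, with no overlap. Col4a6 was at 2.0, 1.72 and 1.5 CPM in young naive, 2.88, 2.83 and 2.24 in middle-aged naive, 19.1, 16.5 and 18.7 in young injured and 11.8, 7.51 and 6.99 CPM in middle-aged injured libraries. The groups separated at both ages, with log2 fold changes of 3.36 ± 0.26 (adjusted p = 9.1e-08) and 1.73 ± 0.25 (adjusted p = 3.47e-05). Col4a3 and Col4a4, the partner chains of the kidney and inner ear network, were called at neither age. Mean levels of Col4a3 lay between 0.603 and 1.5 CPM over the 4 groups, and those of Col4a4 between 1.62 and 3.77 CPM. The 95% intervals of their log2 fold changes were wide. For Col4a3 they ran from -2.18 to 1.13 in young and -1.47 to 2.25 in middle-aged mice. Col4a4 gave 1.04 (interval -0.16 to 2.23) in young mice, where all injured libraries lay above the naive ones. In middle-aged mice, where its groups overlapped, Col4a4 gave -1.09 (interval -2.27 to 0.09).

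Both multiplexins, Col15a1 and Col18a1, rose at both ages. These chains sit at the outer face of vascular basement membranes, and Col18a1 is the precursor of endostatin. Col15a1 was at 4.74, 5.53 and 5.05 CPM in young naive, 6.72, 1.05 and 4.96 in middle-aged naive, 19.8, 14.8 and 18.7 in young injured and 13.4, 14.9 and 8.2 CPM in middle-aged injured libraries. Its log2 fold change was 1.80 ± 0.41 (adjusted p = 0.00183) and 1.51 ± 0.41 (adjusted p = 0.00605). Col18a1 was counted at 1.55, 2.99 and 0.86 CPM in young naive, 1.73, 1.89 and 1.36 in middle-aged naive, 26.4, 27.7 and 22.7 in young injured and 22.3, 24.5 and 11.3 CPM in middle-aged injured libraries. It rose by 3.80 ± 0.37 (adjusted p = 9.06e-07) and 3.55 ± 0.38 (adjusted p = 1.67e-06), and no injured library overlapped a naive one for either chain. Of 8 endothelial cell markers, 4 rose and 0 fell in young mice, and 3 rose and 1 fell in middle-aged mice. Of all tested genes 28.3% rose and 26.3% fell in young mice, and 29.2% and 29.3% in middle-aged mice. Summed levels of these markers were 150 to 257 CPM in naive and 205 to 310 CPM in injured libraries.

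Type VI collagen forms beaded filaments between fibres and cells. Of its 6 chains 3 were tested, and the other 3 are the low chains Col6a4, Col6a5 and Col6a6. Col6a1 was at 0.729, 1.72 and 1.72 CPM in young naive, 0.096, 0.839 and 0.56 in middle-aged naive, 17, 15.4 and 11.5 in young injured and 4.65, 6.39 and 4.06 CPM in middle-aged injured libraries. Its libraries did not overlap between injured and naive, and the log2 fold change was 3.40 ± 0.41 (adjusted p = 6.47e-06) and 3.32 ± 0.47 (adjusted p = 2.95e-05). Col6a3 stood at 0.456, 1.18 and 0.538 CPM in young naive, 1.34, 0.839 and 0.48 in middle-aged naive, 20.7, 13.2 and 11.5 in young injured and 5.56, 8.78 and 4.49 CPM in middle-aged injured libraries. It rose by 4.35 ± 0.44 (adjusted p = 1.33e-06) and 2.83 ± 0.43 (adjusted p = 6.01e-05). Col6a2 gave 1.82, 0.906 and 2.04 CPM in young naive, 0.288, 1.78 and 0.56 in middle-aged naive, 5.07, 4.26 and 5.27 in young injured and 1.66, 1.92 and 1.47 CPM in middle-aged injured libraries. It was called higher in young mice (1.61 ± 0.48, adjusted p = 0.0106), a call lost without young naive replicate 2 (adjusted p = 0.052). In middle-aged mice the Col6a2 groups overlapped and the difference was 0.97 ± 0.53, with an interval from -0.07 to 2.0 (adjusted p = 0.131).

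Short-chain network collagens form lattices, and type VIII is the form of vessel walls and of the cornea. Col8a1 was at 0.273, 0.906 and 0.323 CPM in young naive, 0.768, 0.839 and 0.16 in middle-aged naive, 20.4, 27.8 and 14.5 in young injured and 17.9, 24.0 and 5.35 CPM in middle-aged injured libraries. It went from near the floor of detection to well above it in every injured library, with log2 fold changes of 5.33 ± 0.63 (adjusted p = 5.68e-06) and 4.78 ± 0.62 (adjusted p = 1.25e-05), the first 6.09 without young naive replicate 2. Its partner Col8a2 was at 1.18, 0.634 and 0.968 CPM in young naive, 0.96, 4.83 and 0.96 in middle-aged naive, 9.25, 3.80 and 2.33 in young injured and 0.913, 0.319 and 0.518 CPM in middle-aged injured libraries. Col8a2 was called higher in young mice (2.45 ± 0.69, adjusted p = 0.00732) and lower in middle-aged mice (-1.91 ± 0.73, adjusted p = 0.0372). Each call leaned on libraries that stood apart. Without young injured replicate 1 the rise was 1.72 (adjusted p = 0.0601), and without middle-aged naive replicate 2 the fall was -0.71 (adjusted p = 0.381). The middle-aged call was also lost without middle-aged injured replicate 2 or 3.

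Of 8 tested FACIT chains, 4 rose and 0 fell in young mice, where 28.3% and 26.3% of all tested genes did. In middle-aged mice 2 rose and 2 fell (25% each), near the 29.2% and 29.3% of all genes. The middle-aged counts are therefore not read as a result on the class. Col12a1, which coats type I fibrils in dense tissue, was at 9.02, 6.98 and 10.8 CPM in young naive, 8.16, 7.76 and 7.36 in middle-aged naive, 58.2, 54.7 and 67.8 in young injured and 47.3, 46.9 and 38.2 CPM in middle-aged injured libraries. It rose by 2.76 ± 0.18 (adjusted p = 1.43e-08) and 2.51 ± 0.18 (adjusted p = 3.13e-08), with the tightest errors of the 34 chains. Col14a1, a relative of Col12a1, was at 1.18, 0.453 and 0.43 CPM in young naive, 0.576, 0.105 and 0.16 in middle-aged naive, 7.78, 6.36 and 4.82 in young injured and 4.07, 9.66 and 4.83 CPM in middle-aged injured libraries. All injured libraries exceeded all naive ones, by 3.16 ± 0.51 (adjusted p = 0.000119) and 4.42 ± 0.58 (adjusted p = 1.52e-05) on the log2 scale. Without replicate 1 of the naive group these were 3.81 and 5.41. Col9a3, a chain of type IX collagen known from cartilage, was at 5.01, 5.80 and 7.31 CPM in young naive, 3.74, 4.30 and 3.76 in middle-aged naive, 4.92, 6.74 and 7.0 in young injured and 2.74, 2.0 and 2.25 CPM in middle-aged injured libraries. It fell in middle-aged mice by 0.75 ± 0.27 on the log2 scale (adjusted p = 0.0265) and gave 0.04 ± 0.25 in young mice, with an interval from -0.44 to 0.53. The middle-aged call was lost without middle-aged naive replicate 2 or middle-aged injured replicate 2 or 3, and also with scaling by totals alone, with no filter on low counts and in the fit of only the libraries compared (adjusted p of up to 0.0927). Exons of Col9a3 share 234 bases with Tcfl5 on the other strand, and without the strand setting of the counting, which the sources do not give, reads there cannot be told apart.

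Col16a1, a FACIT chain of many connective tissues, had a pattern of its own. It was at 4.46, 5.80 and 8.71 CPM in young naive, 16.1, 14.0 and 15.3 in middle-aged naive, 24.1, 25.7 and 27.8 in young injured and 20.3, 18 and 21.1 CPM in middle-aged injured libraries. The 4 groups did not overlap, in rising order young naive, middle-aged naive, middle-aged injured and young injured. Injury raised it by 2.04 ± 0.22 in young mice (adjusted p = 1.95e-06), and the difference in middle-aged mice was 0.39 ± 0.20 (adjusted p = 0.115). The other chains of the class were low. Col20a1 was called higher in young mice, from a mean of 0.76 ± 0.288 CPM (SD, n = 3) in naive to 3.24 ± 1.49 CPM in injured libraries, a call lost without young naive replicate 1 or 3 or young injured replicate 2 or 3 (adjusted p of up to 0.119). Col9a1 was called lower in middle-aged mice, from 0.977 ± 0.494 to 0.166 ± 0.144 CPM, with a log2 fold change of -2.50 that was -3.41 without middle-aged injured replicate 1. Col9a2 and Col22a1 were called in neither injury comparison, with group means of 0.445 to 0.807 CPM and 0.297 to 1.07 CPM.

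Transmembrane collagens sit in the cell membrane with the helix outside the cell, and neither of the 2 tested ones rose at any age. Col23a1 was at 17.4, 19.5 and 21.0 CPM in young naive, 26.2, 25.2 and 25.3 in middle-aged naive, 11.7, 10.1 and 7.98 in young injured and 4.40, 3.67 and 5.70 CPM in middle-aged injured libraries. Its groups did not overlap, and it fell by 0.96 ± 0.20 in young (adjusted p = 0.000817) and by 2.48 ± 0.21 at the later age (adjusted p = 1.7e-07) on the log2 scale. Col25a1, first described in neurons, was at 5.92, 3.35 and 3.23 CPM in young naive, 1.63, 3.67 and 2.0 in middle-aged naive, 1.69, 0.698 and 2.11 in young injured and 1.25, 1.12 and 1.47 CPM in middle-aged injured libraries. It fell in young mice by 1.47 ± 0.45 (adjusted p = 0.0123), a call lost without young naive replicate 1 (adjusted p = 0.0755) or young injured replicate 2. In middle-aged mice the difference was -0.92 ± 0.47 (adjusted p = 0.105). Beside these chains, summed neuron markers were at 681 to 1976 CPM in naive and 275 to 480 CPM in injured libraries, and summed astrocyte markers at 10500 to 12362 CPM in naive and 3579 to 5619 CPM in injured ones, whose part was not tested. Col7a1, which anchors epithelium and is no transmembrane chain, was called higher at both ages. Its mean went from 0.24 to 1.43 CPM in young mice, a call lost without young naive replicate 1 or 2 (adjusted p of up to 0.0558). In middle-aged mice it was counted 42 times in injured against 1 time in naive libraries, a ratio of 37.7 with a 95% counting interval from 6.41 to 1524.

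Summed over all 44 chains per length of exon, collagen transcripts stood at 23.3, 23.9 and 25.2 RPKM in young naive, 22.8, 32.0 and 22.0 in middle-aged naive, 184, 178 and 134 in young injured and 94.7, 107 and 60.8 RPKM in middle-aged injured libraries. Injured libraries lay above naive ones at both ages, and the ratio of the means was 6.84 in young and 3.42 in middle-aged mice. Middle-aged injured libraries all lay below young injured ones, at a ratio of 0.53, and the naive groups overlapped. These sums are descriptions, to which no test was applied. Fibrillar chains grew most in amount, from 9.05 ± 0.54 (SD, n = 3) to 109 ± 23.0 RPKM in young and from 8.41 ± 1.66 to 50.7 ± 18 RPKM in middle-aged mice. Type IV chains went from 5.33 ± 0.34 to 26.5 ± 2.47 RPKM in young and from 6.13 ± 3.76 to 19.1 ± 2.53 RPKM in middle-aged mice. Type VI chains were 8.79 times as high after injury in young and 5.14 times in middle-aged mice, multiplexins 6.07 and 5.18 times, and FACIT chains 2.91 and 1.78 times. For short-chain collagens the ratio was 14.1 in the young groups and 3.32 in the middle-aged ones, which overlapped through middle-aged naive replicate 2. Transmembrane chains went the other way, to 0.539 of the naive level in young and 0.199 in middle-aged mice.

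The make-up of the collagen transcripts also differed between naive and injured libraries. Fibrillar chains held 37.5% ± 1.45 of the summed level in young naive and 32.9% ± 0.776 in middle-aged naive libraries, and after injury 65.8% ± 3.42 in young and 56.9% ± 5.67 in middle-aged libraries (SD, n = 3). Transmembrane chains, almost all Col23a1, held 15.5% and 19.1% in the naive groups and 1.23% and 1.19% in the injured groups. Type IV chains held 22.2% ± 2.21 in young naive and 16.2% ± 1.53 in young injured libraries. In middle-aged mice they held 17.6%, 32.7% and 17.7% in the naive libraries, the second of which stood apart, and 21.1%, 19.6% and 26.7% in the injured ones, which overlap. By level per length, Col1a2 (3.88 RPKM) led in young naive libraries ahead of Col23a1 (3.36), with no overlap between them, and Col23a1 (4.46) stood beside Col1a2 (4.08) in middle-aged naive libraries, where they overlapped. In young injured libraries Col1a2 (43.7 RPKM) and Col3a1 (37.1) overlapped at the top, followed without overlap by Col4a1 (14.5), which overlapped Col1a1 (12). In middle-aged injured libraries the order was Col3a1 (20.8 RPKM), Col1a2 (15.9) and Col4a1 (11.5), each overlapping the next, and Col4a1 did not overlap Col4a2 (3.56). The place of Col1a2 depends on the length used. With the longest coding transcript it stood at 9.49 RPKM against 4.52 for Col23a1 in middle-aged naive and at 37 against 36.6 for Col3a1 in middle-aged injured libraries.

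**Figure D3:**
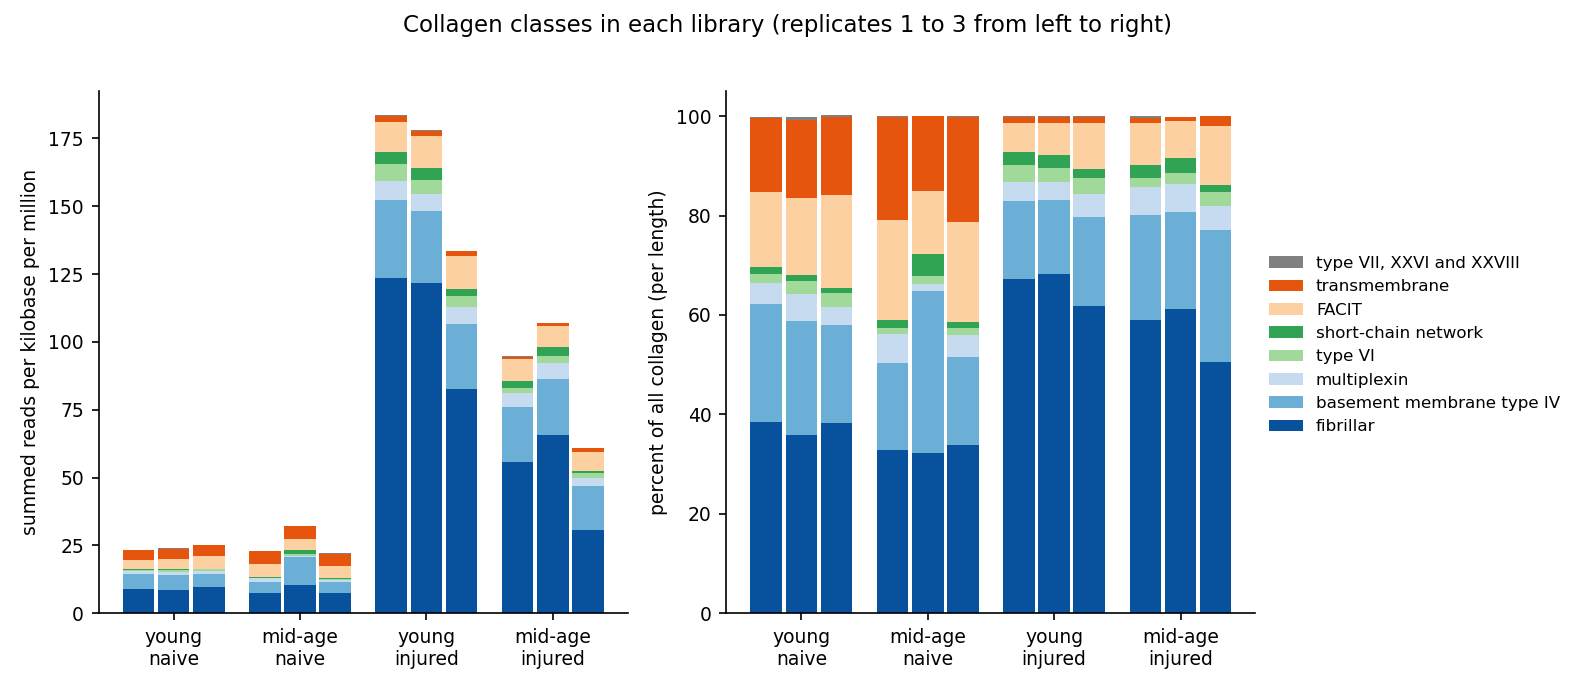
Summed RPKM (left) and percent of all collagen (right) for the 8 chain classes, stacked for each of the 12 libraries. Fibrillar chains make up 32.2% to 38.4% of the naive bars and 50.5% to 68.2% of the injured bars.

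Without a lesion, few chains were called by age, and a chain that was not called is not shown to be unchanged. In naive mice 2 of 34 tested chains were called higher in middle-aged than in young libraries, where 2.02% of all tested genes were, and 0 were called lower, where 1.78% of all genes were. At an unadjusted p under 0.05 edgeR gave 3 higher and 6 lower chains. No share of all genes is given at this threshold, so these counts are not read as a result. DESeq2 called 3 chains higher and 2 lower, where it called 3.85% and 3.15% of all genes. The median over the chains was -0.34, against 0.01 over all genes. Among the chains that edgeR did not call were Col2a1 (1.52 ± 0.44, adjusted p = 0.0726) and Col5a2 (-1.35 ± 0.38, adjusted p = 0.0675). Col16a1 rose by 1.27 ± 0.22 (adjusted p = 0.00521) and Col5a1 by 1.68 ± 0.42 (adjusted p = 0.0411) on the log2 scale, with no overlap between the naive groups for either chain in the values given above. The Col5a1 call was lost in 9 of 19 alternative settings, among them leaving out any young naive library, any young injured library, middle-aged naive replicate 2 or middle-aged injured replicate 1, with adjusted p of up to 0.20. The Col16a1 call was lost in 1, the fit of the 6 naive libraries alone (adjusted p = 0.136). Of the 8 markers of macrophages and microglia, 6 were also higher in middle-aged naive libraries, at 233 to 260 against 97.1 to 136 summed CPM.

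Between injured groups the chains leaned lower in middle-aged mice. Of 34 tested chains, 7 were called lower, where 0.908% of all tested genes were, and 0 were called higher, where 0.24% of all genes were. At an unadjusted p under 0.05 edgeR gave 18 lower and 1 higher chain. No share of all genes is given at this threshold, so these counts are not read as a result. DESeq2 called 11 lower and 0 higher, where it called 1.98% of all genes lower and 0.908% higher. By sign alone, 33 of the 34 log2 fold changes were below 0, with a median of -0.84 against 0.00 over all genes, and Col2a1 was the exception at 0.94 ± 0.35 (adjusted p = 0.313). The 7 called chains were Col1a1 (-1.92 ± 0.33, adjusted p = 0.0107), Col1a2 (-1.46 ± 0.26, adjusted p = 0.0133), Col11a1 (-1.25 ± 0.27, adjusted p = 0.0387), Col11a2 (-2.48 ± 0.40, adjusted p = 0.00903), Col4a6 (-1.05 ± 0.22, adjusted p = 0.0382), Col9a3 (-1.42 ± 0.26, adjusted p = 0.0178) and Col23a1 (-1.12 ± 0.21, adjusted p = 0.0174). For each of them every middle-aged injured library lay below every young injured one, as also for chains not called, such as Col3a1 and Col6a1. This order comes from the same libraries as the calls and adds no support to them. No share of all genes with such an order is given. The 7 called chains comprise 4 fibrillar chains and 1 chain each of type IV, the FACIT class and the transmembrane class. Next to the threshold, and not called, were Col8a2 (-3.12 ± 0.71, adjusted p = 0.0526) and Col6a1 (-1.54 ± 0.35, adjusted p = 0.0534), and Col3a1 gave -0.84 ± 0.30 (adjusted p = 0.292).

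This count moved when single libraries were left out, and so did the count over all genes. Of all tested genes 144 were called lower. That count was 87, 51 and 41 without young injured replicates 1, 2 and 3, 43, 38 and 104 without middle-aged injured replicates 1, 2 and 3, and 290 without middle-aged naive replicate 2. Among the chains the count was 2 without young injured replicate 1, which held the muscle markers, 1 without young injured replicate 2, 4 without young injured replicate 3, 2, 3 and 4 without middle-aged injured replicates 1, 2 and 3, and 12 without middle-aged naive replicate 2. The calls of Col1a1 and Col1a2 were lost without young injured replicate 1 or 2 or middle-aged injured replicate 1 (adjusted p of up to 0.0682 and 0.079), with log2 fold changes that ran from -2.28 to -1.58 and from -1.67 to -1.19 over all settings. The call of Col23a1 was lost without any of these or middle-aged injured replicate 2 (up to 0.124), at -1.28 to -0.97. Col9a3 was lost without young injured replicate 2 or 3 or any middle-aged injured library (up to 0.124), Col4a6 without any 1 of 6 libraries (up to 0.221) and Col11a1 without any 1 of 8 (up to 0.258), among them every young injured library for both. Of the 7, Col11a2 alone stayed past the threshold in all 19 alternative settings (adjusted p of up to 0.0424). Summed fibroblast markers were at 230 to 397 CPM in young injured and 188 to 309 CPM in middle-aged injured libraries, which overlap, and 1 of the 7 tested markers, Fmod (the matrix protein fibromodulin), was called lower with age (-1.54 ± 0.24, adjusted p = 0.00794) and in the difference of injury effects (-2.37 ± 0.36, adjusted p = 0.0237). Oligodendrocyte markers were also lower in middle-aged injured libraries (5 of 6 called, 7930 to 12447 against 18251 to 20256 summed CPM). Their part in the age differences was not tested.

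**Figure D4:**
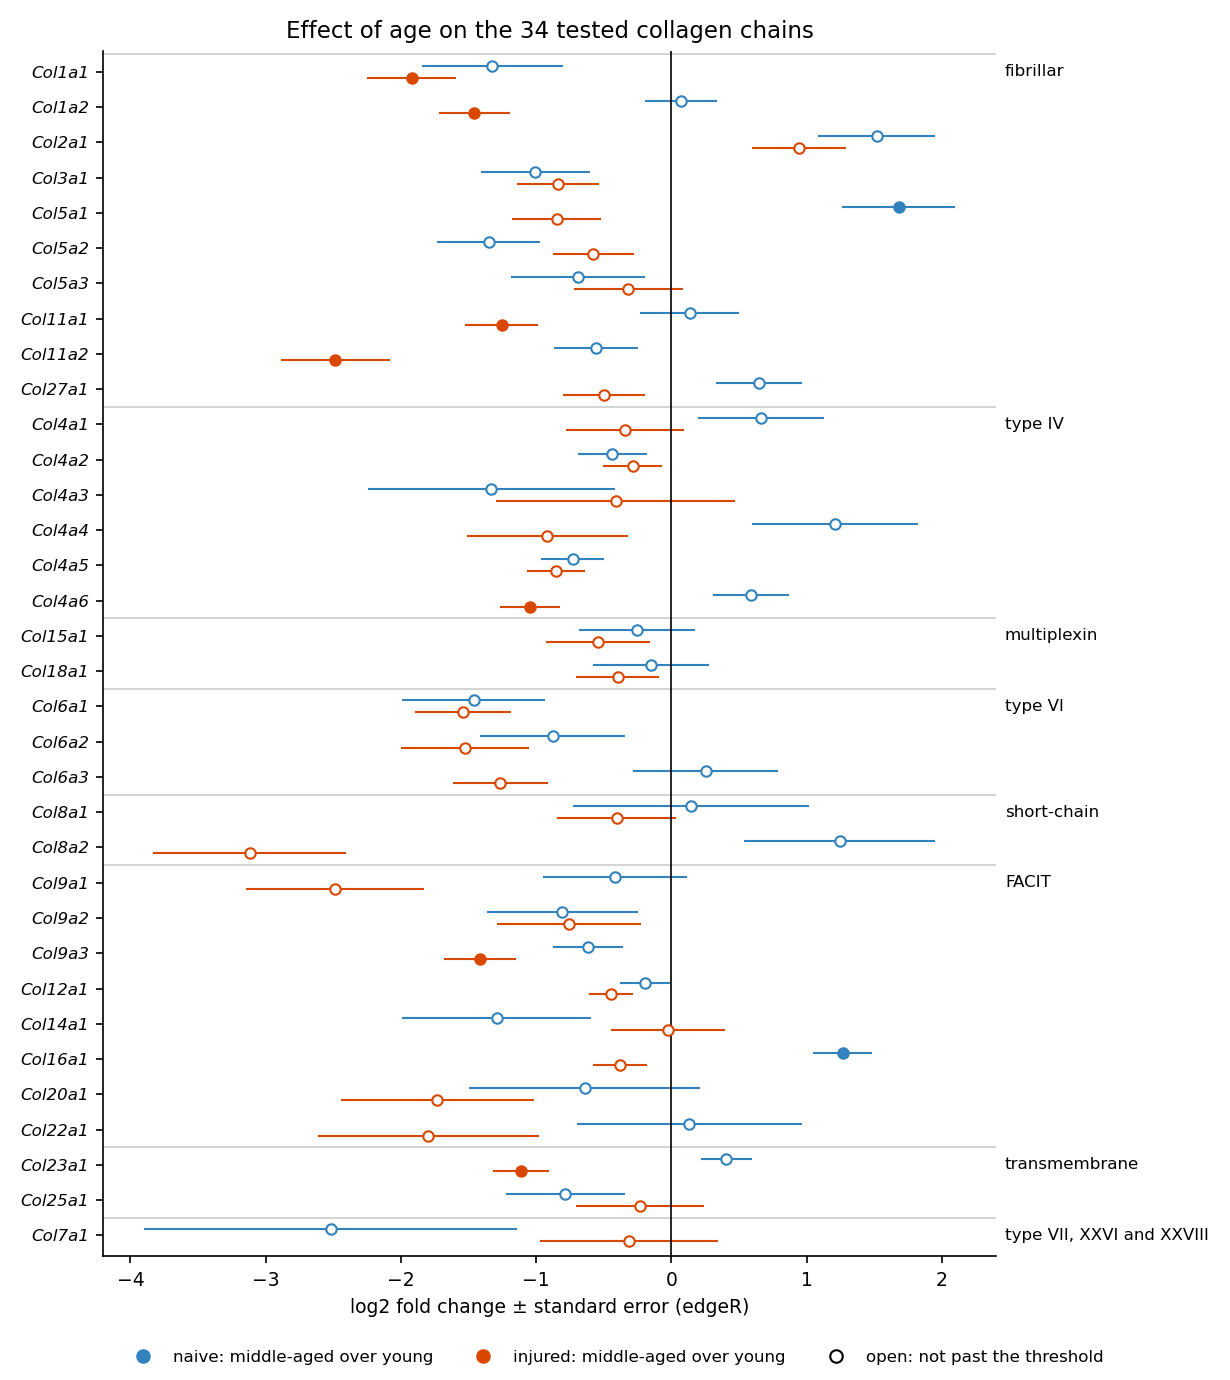
Log2 fold change of middle-aged over young libraries for the 34 tested collagen chains, grouped by class, with its standard error as a bar, in naive (blue) and injured (red) mice. Filled circles passed the test, 2 to the right among naive and 7 to the left among injured comparisons.

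The injury effect differed between the ages for 1 chain by its own test. Of 34 chains, 1 was called lower, meaning a smaller or more negative injury effect in middle-aged mice, where 0.0819% of all tested genes were, and 0 were called higher, where 0.0567% of all genes were. With library totals alone as the scaling, the share of called genes that were higher in this contrast was 25.8% of 31, against 40.9% of 22 by the main scaling. No chain passed an unadjusted p under 0.05 in the higher direction in edgeR and none was called higher by DESeq2, whereas 13 and 7 did so in the lower direction. DESeq2 called 0.649% of all genes higher and 0.952% lower. No such share is given at the unadjusted p, so the counts at that threshold are not read as a result. The chain was Col16a1, with a difference of -1.65 ± 0.29 on the log2 scale (adjusted p = 0.0472), and the naive level was already higher in middle-aged mice. Its call was lost in 11 of 18 alternative settings, with values from -1.94 to -1.45 and adjusted p of up to 0.158. These were the scaling by the median of ratios and the fits that left out any 1 library other than young naive replicate 3 and middle-aged naive replicate 2. The next was Col23a1, at -1.52 ± 0.28 (adjusted p = 0.0533), which fell further in middle-aged mice. Col5a1 gave -2.53 ± 0.53 (adjusted p = 0.0869), Col4a6 -1.64 ± 0.36 (adjusted p = 0.102), Col8a2 -4.36 ± 1.0 (adjusted p = 0.119) and Col1a2 -1.53 ± 0.37 (adjusted p = 0.133). For Col3a1 the difference was 0.17 ± 0.50, with a 95% interval from -0.81 to 1.15, which includes differences of more than 2-fold in one direction. The 5 chains called higher in young mice alone (Col6a2, Col8a2, Col16a1, Col20a1 and Col27a1) therefore did not, Col16a1 apart, pass the test of a difference between ages.

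Several collagens are built from more than 1 kind of chain, and the transcripts of partner chains were set side by side per length of exon. Type I collagen holds more Col1a1 than Col1a2 protein, but the ratio of Col1a1 to Col1a2 transcripts was below 1 in every library. It was 0.131, 0.078 and 0.0641 in young naive, 0.0383, 0.0371 and 0.0305 in middle-aged naive, 0.299, 0.255 and 0.267 in young injured and 0.191, 0.225 and 0.16 in middle-aged injured libraries. The 4 groups did not overlap, in rising order middle-aged naive, young naive, middle-aged injured and young injured. The naive ratios rest on few Col1a1 counts, 37, 22 and 15 in young and 8, 13 and 9 in middle-aged libraries. The ratio also depends on the length used. Exons of Col1a2 cover 12426 bases in all transcripts and 5348 in the longest coding one, and with the latter the ratio was 0.121 to 0.142 in young injured and 0.0763 to 0.107 in middle-aged injured libraries. The ratio of Col3a1 to Col1a1 was 1.92, 3.62 and 1.52 in young naive, 3.26, 2.16 and 3.71 in middle-aged naive, 2.66, 3.55 and 3.21 in young injured and 7.16, 5.85 and 7.42 in middle-aged injured libraries. Middle-aged injured libraries thus lay above all others, and the other 3 groups overlapped. The naive values of this ratio rest on the same few Col1a1 counts.

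Col3a1 and Col5a2 lie tail to tail on chromosome 1, 24614 bases apart. Their ratio was 0.554 to 2.0 in young naive, 1.42 to 2.57 in middle-aged naive, 7.54 to 8.42 in young injured and 5.97 to 7.10 in middle-aged injured libraries, so injured libraries lay above naive ones and the injured groups did not overlap. Col4a1 stood at 2.05 to 3.85 times Col4a2 in 11 libraries and at 14.4 times in middle-aged naive replicate 2, where Col4a1 was counted 584 times against 144 and 125 in the other libraries of its group. The genes share 22 exon bases, at the overlap printed above, and the neighbouring pair Col4a3 and Col4a4 lies 71 bases apart with ratios scattered from 0.0309 to 1.92. Col4a6 was at 0.106 to 0.169 of Col4a5 in young naive libraries, at 0.216 to 0.569 in middle-aged naive, 0.405 to 0.515 in young injured and 0.347 to 0.488 in middle-aged injured libraries, so that young naive libraries lay below all others. Col6a1 was at 0.634 to 3.61 times Col6a2 in naive and 4.15 to 6.88 times in injured libraries, which did not overlap. Col6a3, the long chain of type VI collagen, was at 0.313 to 0.503 of Col6a1 in injured libraries and, on few counts, at 0.114 to 5.13 in naive ones.

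**Figure D5:**
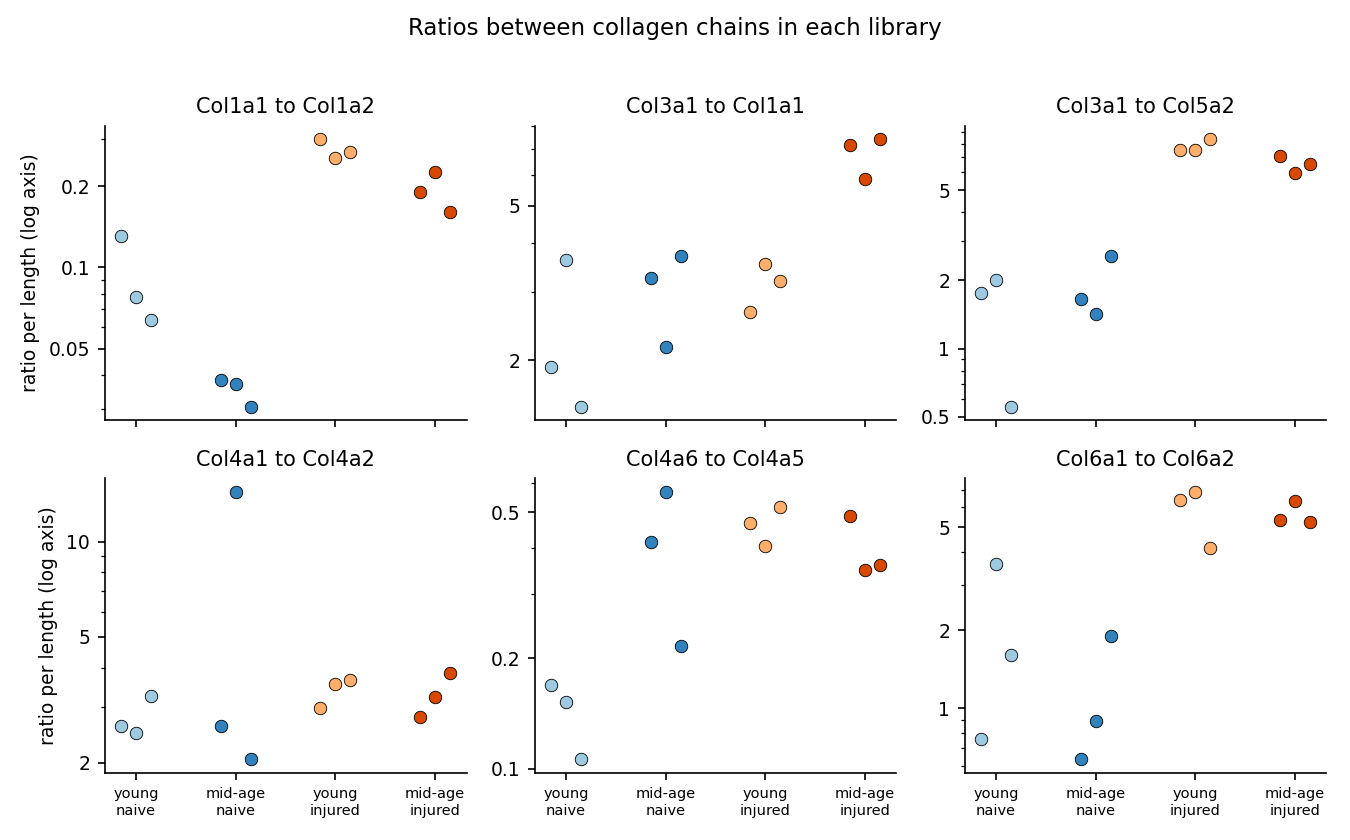
Ratio of transcript levels per length of exon for 6 pairs of collagen chains in each of the 12 libraries, on log axes. The ratio of Col1a1 to Col1a2 separates all 4 groups, on few Col1a1 counts in naive libraries. That of Col3a1 to Col1a1 sets middle-aged injured libraries (5.85 to 7.42) above the rest, and that of Col4a1 to Col4a2 shows middle-aged naive replicate 2 at 14.4.

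Collagen needs a line of enzymes and helpers before it becomes a fibre, and these genes were read out by lists. Of 15 genes of proline and lysine modification, enzymes and their partners, 13 were higher and 2 lower in young mice. In middle-aged mice 11 were higher and 2 lower, with medians of 1.1 at both ages. Over all tested genes 28.3% were higher and 26.3% lower in young mice, with a median of 0.00. In middle-aged mice 29.2% of all genes were higher and 29.3% lower, with a median of -0.03. Crtap, a partner of prolyl 3-hydroxylase, rose by 2.80 ± 0.23 and 2.87 ± 0.22 (young, then middle-aged, log2), Colgalt1, a collagen galactosyltransferase, by 2.22 ± 0.12 and 2.13 ± 0.12, and Plod2, the lysyl hydroxylase of cross-link sites, by 1.80 ± 0.27 and 1.52 ± 0.28. P3h3, a prolyl hydroxylase relative, rose by 1.88 ± 0.39 and 1.09 ± 0.37. P3h4 (-1.21 ± 0.22 and -1.07 ± 0.22) and Colgalt2 (-1.1 ± 0.24 and -1.81 ± 0.25) fell. Of 9 genes of folding and export, 5 rose and 0 fell at each age, with medians of 1.58 and 1.21. Creb3l1, a transcription factor that drives collagen secretion, rose by 3.75 ± 0.34 and 3.08 ± 0.33. Serpinh1, the collagen chaperone HSP47, rose by 2.01 ± 0.23 and 2.23 ± 0.23, from 19.7 to 39.0 CPM in naive libraries to 71.0 to 176 CPM in injured ones. Kdelr3 (2.11 ± 0.39 and 1.74 ± 0.39), a retrieval receptor of the endoplasmic reticulum, and Fkbp10 (1.98 ± 0.46 and 1.21 ± 0.45), a collagen foldase, rose as well.

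Outside the cell, propeptides are cut off and chains are cross-linked. Of 11 tested genes of these steps, 8 rose and 2 fell in young mice, with 6 and 2 in middle-aged mice. Of the 14 listed, 3 (Tll1, Tll2 and Adamts3) were not tested. Shares over all tested genes were 28.3% higher and 26.3% lower in young mice, and 29.2% and 29.3% in middle-aged mice. Lox, the lysyl oxidase that starts cross-linking, was at 2.19, 2.08 and 1.08 CPM in young naive, 0.672, 2.20 and 0.56 in middle-aged naive, 62.6, 75.7 and 37.4 in young injured and 40.2, 52.7 and 18.5 CPM in middle-aged injured libraries. It rose by 5.01 ± 0.48 and 5.07 ± 0.51 on the log2 scale with no overlap. Its relatives Loxl1 (2.69 ± 0.48 and 2.96 ± 0.51) and Loxl2 (1.44 ± 0.30 and 1.36 ± 0.30) rose too, as did Bmp1 (1.90 ± 0.27 and 1.21 ± 0.26), the protease of the C-terminal propeptide. Adamts2, the protease of the N-terminal propeptide, fell (-0.96 ± 0.27 and -1.69 ± 0.28), as did Pcolce2 (-0.69 ± 0.22 and -0.81 ± 0.22), an enhancer of Bmp1. Of 7 tested collagen receptors (of 10 listed), 5 rose and 1 fell in young mice and 4 rose and 1 fell in middle-aged mice. The immune receptor Lair1 rose by 3.26 ± 0.18 and 2.83 ± 0.17, the collagen uptake receptor Mrc2 by 2.48 ± 0.30 and 2.60 ± 0.31, and the integrin chains Itgb1 by 1.73 ± 0.12 and 2.42 ± 0.12 and Itga1 by 1.53 ± 0.34 and 1.26 ± 0.33. Ddr1, a receptor kinase also made by oligodendrocytes, fell by 0.70 ± 0.14 and 0.68 ± 0.14.

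Genes of collagen breakdown rose beside those of synthesis, 7 of 10 in each age group, with 2 lower in young and 1 in middle-aged mice. Shares over all tested genes were 28.3% higher and 26.3% lower in young mice, and 29.2% and 29.3% in middle-aged mice. Mmp8 and Mmp13, collagenases that cut fibrils, were at 0 in all young naive libraries and reached 14.2, 11.8 and 8.89 CPM (Mmp8) and 8.44, 2.17 and 2.33 CPM (Mmp13) in young injured ones, at least 40.2-fold and at least 14.9-fold higher when naive libraries are set at the floor of 3 counts per library. In middle-aged mice Mmp13 was at least 17.3-fold higher, and Mmp8 was counted 712 times against 4, a ratio of 160 with a 95% counting interval from 62.1 to 588. Both genes passed the filter on low counts through injured libraries alone, so a rise went with being tested. The lysosomal proteases Ctsb (4.08 ± 0.15 at both ages) and Ctsl (3.33 ± 0.16 and 3.75 ± 0.16) rose, and Mmp9, a gelatinase, fell (-0.94 ± 0.28 and -1.27 ± 0.28). Age called 5 genes of these lists, which are named after their values were seen. In naive mice 1 of 11 tested propeptide and cross-linking genes was higher, and of 7 receptors 1 was higher and 1 lower. In injured mice 1 of 10 breakdown genes was higher and 1 of 11 propeptide and cross-linking genes lower. Of all tested genes 2.02% were higher and 1.78% lower in naive mice, and 0.24% and 0.908% in injured mice. Counts this small are not read as a result on the lists. Pxdn (1.0 ± 0.18) and Lair1 (0.78 ± 0.17) were higher and Itgb1 (-0.52 ± 0.12) lower in middle-aged naive libraries, and Ctsl was higher (0.65 ± 0.14) and Adamts2 lower (-1.28 ± 0.28) in middle-aged injured ones.

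Marker lists of the cells that can make or surround collagen were read out as well. Of all tested genes 28.3% rose and 26.3% fell in young mice, and 29.2% and 29.3% in middle-aged mice. Lists with shares near these are not read as a result on the cell type. All 7 tested fibroblast markers rose in young mice and 4 of 7 in middle-aged mice (1 of the 8, Slc47a1, was not tested), with summed levels of 30.2 to 60.9 CPM in naive and 188 to 397 CPM in injured libraries. Of 7 tested mural cell markers, 2 rose and 3 fell in young mice and 1 rose and 4 fell in middle-aged mice, at 279 to 430 summed CPM in naive and 155 to 268 CPM in injured libraries. All 8 markers of macrophages and microglia rose at both ages, from 97.1 to 260 summed CPM to 7244 to 9895 CPM. Of 6 astrocyte markers 5 fell at each age, of 4 neuron markers 2 fell in young mice and 3 fell and 1 rose in middle-aged mice, and of the 2 tested cartilage and bone markers 1 fell in young and 2 in middle-aged mice. The 4 muscle markers were at 0 in all 6 naive libraries and were not tested. How far cell numbers account for the chain levels was not tested.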

How the data were processed

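RNA of laser-captured spinal cord white matter was amplified and sequenced on a NextSeq500. Per the labels and the methods, the authors checked reads with FastQC 0.11.4, used TopHat 2.0.10 (Bowtie 1.1.2 inside) for mapping against GRCm38, took counts per gene from featureCounts, and deposited them as raw counts. The annotation release, strand setting and treatment of shared reads are not given in the sources used here. Of the 46078 genes, 45143 (97.97%) were matched to a symbol. No 2 libraries agreed within sampling noise, and all 12 were used.

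The collagen chains, pathway lists and marker lists were chosen with earlier results of these data known. The result of 1 marker list is not reported here. edgeR 4.0.16 (R 4.3.3) fitted all 12 libraries with 1 coefficient per group, after filterByExpr and TMM scaling (factors 0.921 to 1.09), by the quasi-likelihood test, with Benjamini-Hochberg adjustment over 15866 genes and a threshold of 0.05. Standard errors were derived from the fold change and its F statistic (log2 value over root F), and tests are two-sided. Totals ran from 9834447 to 12807437 counts, and the floor was 3 counts per library. RPKM used the exons of all transcripts of a gene in GENCODE M21. Values in every library are given for chains called in at least 1 comparison with a mean log2 CPM of at least 1, and for those called by age or in the difference of injury effects. Up to 4 genes with the largest change in young mice were named from each pathway list, with up to 2 that moved the other way. Alternatives were other scalings and filters, a replicate block, the fit of only the libraries compared, DESeq2 1.42.0 and leaving out each library. The script was tested on simulated data. Summaries used Python 3.11.15.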

Additional observations from a re-analysis of the deposited data

Results flagged for a closer look

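The injury effect on Col16a1, a FACIT chain, differed between the ages by the interaction test of edgeR. The log2 difference, middle-aged minus young, was -1.648 ± 0.29 (adjusted p = 0.0472), with a 95% interval from -2.22 to -1.07. The call was lost in 11 of 18 alternative settings (adjusted p of up to 0.158), with values from -1.94 to -1.45. Its age call in naive mice was lost in the fit of the naive libraries alone (adjusted p = 0.136). All 3 middle-aged naive libraries lay above all 3 young naive ones, and all 3 middle-aged injured libraries below all 3 young injured ones.

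Col13a1, a transmembrane chain, was too low to be tested, and its counts allow no statement on change. They are given because their order differed between the 2 ages. It was counted 0, 4 and 0 times in young naive and 7, 9 and 9 times in young injured libraries, 25 in all. In middle-aged mice it was counted 3, 2 and 5 times in naive and 1, 0 and 1 times in injured libraries. The injured counts lay above the naive ones in young mice and below them in middle-aged mice, and this difference was not tested.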

How the results depend on the processing

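Of 63 called chain comparisons, 46 stayed past the threshold in every alternative setting and 0 reversed (22 of 28 for injury in young mice, 23 of 25 for injury in middle-aged mice). When 1 library was left out, 22 to 25 chains were higher and 2 to 3 lower after injury in young mice, with 20 to 21 higher and 3 to 7 lower in middle-aged ones. Fitting only the libraries compared gave 2 chains lower after injury in middle-aged mice (26.6% of all genes). By age it gave 0 higher and 0 lower in naive mice (0.181% and 0.312% of all genes). In injured mice it gave 1 higher (Col2a1) and 14 lower by age. Of all genes 2.16% were higher and 3.28% lower in that fit, against 0.24% and 0.908% in the main one. Without a filter on low counts, 3 chains were lower by age in naive mice, 12 lower by age in injured mice and 7 lower in the difference of injury effects. The shares of all genes were 1.6%, 1.16% and 0.913%. DESeq2 gave 2, 11 and 7 (3.15%, 1.98% and 0.952% of all genes). For that difference, scaling by the median of ratios gave 0 and by totals alone 2 (0.0756% and 0.145% of all genes). Leaving out 1 library gave 1 to 3 chains higher and 0 to 1 lower by age in naive mice, 1 to 12 lower by age in injured mice and 0 to 2 lower in the difference of injury effects. With the replicate number as a block, 1 chain (Col5a2) was lower by age in naive mice (1.57% of all genes). Same-numbered libraries correlated at -0.113 to 0.153 and not every library correlated best with its own number, so the numbers were not read as a pairing. The cause of these shifts was not tested, beyond the fewer or more genes and libraries in each fit.

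Of 320 class sums under alternatives, 314 moved by less than the spread between replicates and 0 reversed. By totals alone the log2 difference by injury was 2.51 for type IV in young and 0.94 for FACIT chains in middle-aged mice. Without the length, FACIT chains gave 2.04 and 1.31. With the longest coding transcript as the length, chosen after seeing the data, transmembrane chains gave -2.06 by injury in middle-aged mice and 0.14 by age in naive mice. The type VII, XXVI and XXVIII sum was at 0 in 1 library and has no log2 value there. Of the 107 chain comparisons that were not called, 29 changed sign in some setting. Chains with counts near the floor of 3 limit what these libraries can show.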
